A study of Mus musculus with 32 samples.

Results

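The 9 genes described here are Cd24a, Tubb2b, Vash2, Vim, Sox2, Ccnd2, Stmn1, Gap43 and Crmp1, which are known from neural progenitors and immature neurons, and they were followed through the embryonic and the adult mouse brain allele by allele. They were taken by symbol from 18501 nuclear genes listed in at least 1 of 3 tables of allele counts, and all 9 were listed in all 3 tables, as were 13047 genes. The genes were proposed because of their levels in the embryo against the adult in these same data, so that contrast is given as a description without a test.

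Sox2 is a transcription factor that keeps neural stem cells in the progenitor state, Vim (vimentin) is the intermediate filament protein of radial glia and immature astrocytes, and Ccnd2 (cyclin D2) moves progenitors towards DNA synthesis in the cell cycle. When progenitors leave the cycle, their daughters extend neurites with a cytoskeleton that includes the beta-tubulin Tubb2b, the microtubule-destabilising protein Stmn1 (stathmin), the growth cone protein Gap43 and Crmp1, which mediates semaphorin signals to the growth cone. Vash2 is a vasohibin, an enzyme family that removes the terminal tyrosine of alpha-tubulin, and Cd24a is a small cell surface glycoprotein of newly formed neurons and of ependyma.

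Polyadenylated RNA was sequenced from F1 hybrids of CAST/EiJ (CAST), an inbred strain of wild castaneus origin, and C57BL/6J (B6), the common laboratory strain. F1i hybrids had a CAST mother with a B6 father, and F1r hybrids had a B6 mother with a CAST father. Whole brain at embryonic day 15 (E15) gave 1 pool per cross, with the RNA of 4 to 5 individuals and no sex given. Mice aged 5 weeks gave the preoptic area (POA, the anterior hypothalamus) and medial prefrontal cortex (PFC), with separate male and female pools for each cross and 8 to 10 individuals in a pool. Inbred CAST and B6 E15 brain served as reference for the alleles. No group carried a transgene, a deletion or a treatment that the labels name. The unit of replication is the pool (n = 2 in E15, 4 in POA and 4 in PFC). Whether both regions were taken from the same mice is not given in the labels. In each list of 4 adult values the order is F1i male, F1r male, F1i female, F1r female.

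An informative read covers a base that differs between the strains (a single nucleotide polymorphism, SNP) and thereby tells the chromosome it was copied from. For Tubb2b, Gap43, Ccnd2, Crmp1 and Vim, placed SNPs with most reads are shown, which are not always those that a result turns on. Each window holds 29 bases on the gene's own strand, in the reference (B6) sequence of mm9. The capital marks the SNP. Bases are counted from 1 at the left end, and the substitution gives the B6 base, its place and the CAST base. Tubb2b base 139 of the transcript lies in coding sequence at chr13:34222071-34222099 (C15T), and base 754, also coding, at chr13:34220031-34220059 (T15C). Both Gap43 SNPs are coding, base 389 at chr16:42292256-42292284 (G15A) and base 575 at chr16:42292070-42292098 (C15G). Ccnd2 base 1488 at chr6:127079996-127080024 (C15T) and base 5478 at chr6:127076006-127076034 (T15C) lie in the 3' UTR. Crmp1 base 2684 at chr5:37682991-37683019 (A15G) and base 2525 at chr5:37682832-37682860 (C15A) lie in the 3' UTR, and Vim base 591 at chr2:13496155-13496183 (C15A) in coding sequence.
Tubb2b base 139: cgagagatcgtgcaCattcaggcgggcca
Tubb2b base 754: ctgtatgacatctgTttccgcaccctgaa
Gap43 base 389: gatggtgtggagaaGaaggagggagatgg
Gap43 base 575: accactgataactcCccgtcctccaaggc
Ccnd2 base 1488: gtgcgtacctgcaaCatgggaacgaatta
Ccnd2 base 5478: gatgtttctggattTtcaacagcacaaaa
Crmp1 base 2684: gcagggaaggtcacAgagctccaccaccc
Crmp1 base 2525: ctgatggacatcgtCgaggaccgacatag
Vim base 591: acgtccacacgcacCtacagtctgggcag

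The remaining genes lie at chr10:43298975-43304068 (Cd24a), chr1:192771527-192803175 (Vash2), chr3:34548927-34551383 (Sox2) and chr4:134024235-134029758 (Stmn1) of mm9. The 5 SNPs of Stmn1 are named by their base in the transcript alone. Sox2 lies within the noncoding gene Sox2ot, and without strand in the counts their reads cannot be told apart.

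Nuclear informative reads numbered 11449274 and 11898858 in E15, with 3601705 to 7697861 for a POA pool and 4960997 to 7467349 for a PFC pool. Levels are given as informative reads per 1000000 of these totals (RPM). A level depends on how many SNPs a gene has, so it is compared between pools and never between genes. The regional labels were checked with Slc17a7, the vesicular glutamate transporter of cortical neurons, at 2282 to 3516 RPM in PFC and 0.981 to 1.95 RPM in POA. The summed level of 7 listed oligodendrocyte genes was 10303 to 11124 RPM in POA, 1690 to 5537 RPM in PFC and, over 6 listed genes, 164 to 224 RPM in E15. The summed level of 8 mature neuron genes was 3020 to 3378 RPM in POA, 11781 to 13482 RPM in PFC and 903 to 1231 RPM in E15.

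In the embryo 7 of the 9 genes were at least 2-fold above both adult regions, and the exceptions were Sox2 and Gap43. Of all 13047 genes, 19.4% met the same rule, but the genes were chosen on this contrast and nothing is read from the count. Both embryonic pools lay above all 8 adult pools in every one of these genes except Gap43. The share of all genes that do so was not counted, and nothing is read from this either. The median log2 difference between E15 and the adult mean was 2.74 over the 9 genes and 0.22 over all genes. In bulk tissue, fewer cells of a type and less RNA per cell cannot be told apart, and whole brain was set against single regions.

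Among the progenitor genes, Vim was at 499.9 and 382 RPM in the E15 F1i and F1r pools. It stood at 64.97, 62.1, 81.3 and 75.1 RPM in POA and at 44.5, 43.1, 59.7 and 60.04 RPM in PFC. The E15 mean was 6.22-fold that of POA and 8.51-fold that of PFC, and in both adult regions the 2 female pools were the higher ones. Sox2 was at 72.2 and 68.7 RPM in E15, at 41.6, 30.7, 46.1 and 49.6 RPM in POA and at 15.5, 22.9, 25.3 and 22.0 RPM in PFC. Its 3 groups did not overlap and fell in the order E15, POA, PFC, with an E15 mean 1.68-fold that of POA and 3.29-fold that of PFC. Ccnd2 reached 211 and 276 RPM in E15, 18.6, 12.8, 18.3 and 17.8 RPM in POA and 57.4, 59.6, 66.7 and 40.4 RPM in PFC. PFC was the higher adult region, and the E15 mean was 14.4-fold that of POA and 4.35-fold that of PFC.

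**Figure D1:**
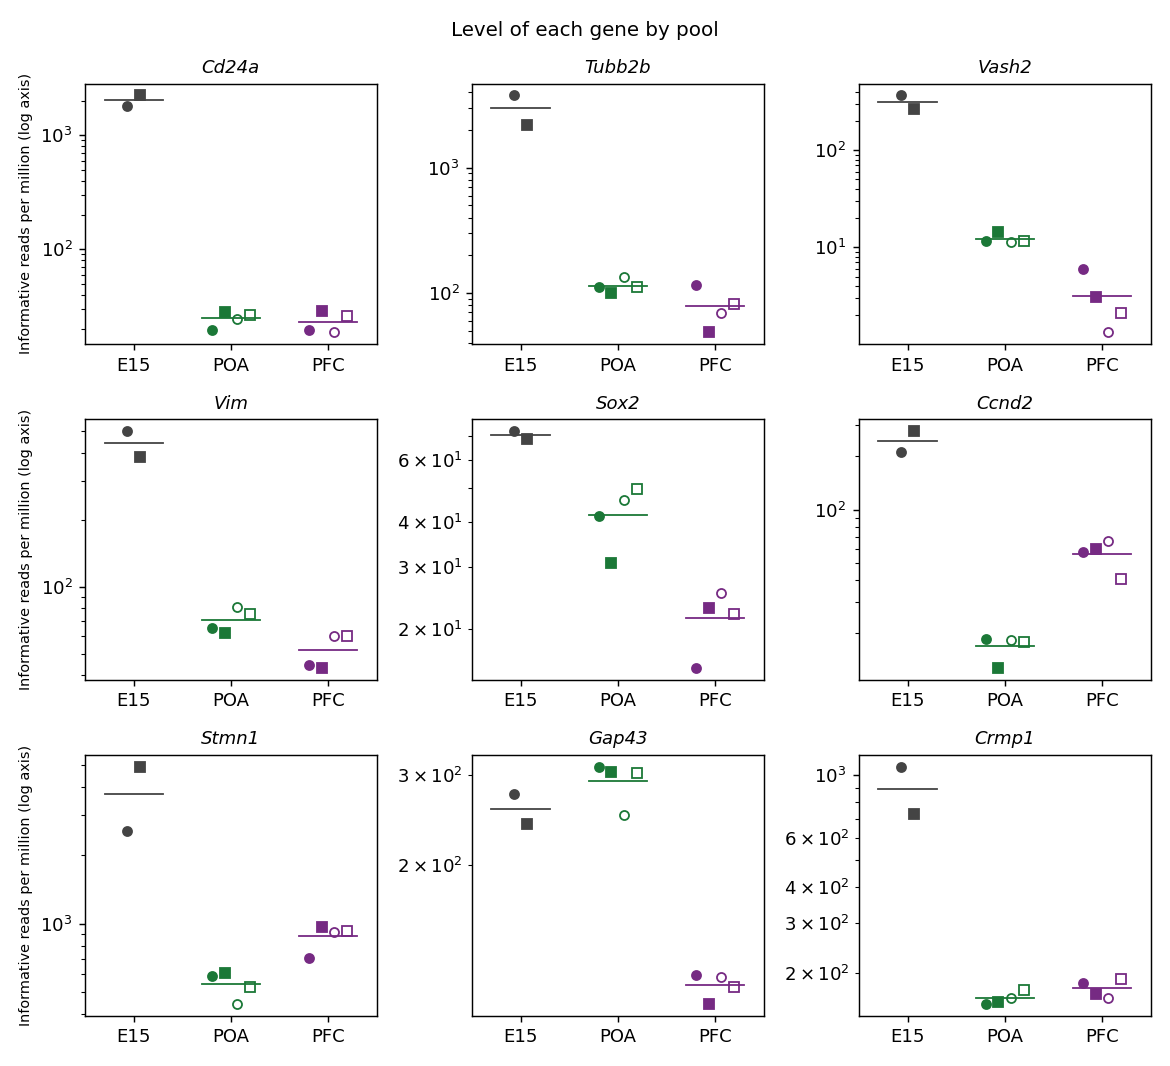
Level in RPM (log axis, scaled separately for each gene) in the 2 E15, 4 POA and 4 PFC pools. Circles are F1i and squares F1r pools, open symbols are female adult pools, filled symbols are male adult pools and the E15 pools of unstated sex, and lines are group means; both E15 pools lie above all adult pools except for Gap43, whose POA pools reach 310.1 RPM.

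Cd24a had the largest fold of the 9 over POA. It was at 1817 and 2234 RPM in E15, at 19.7, 28.2, 24.6 and 26.8 RPM in POA and at 19.6, 28.5, 18.7 and 25.8 RPM in PFC. The adult pools overlapped and reached at most 28.5 RPM, and the E15 mean was 81.6-fold that of POA and 87.5-fold that of PFC. Vash2 was at 366 and 267 RPM in E15, at 11.7, 14.5, 11.4 and 11.6 RPM in POA and at 6.05, 3.10, 1.34 and 2.13 RPM in PFC, where the 4 values rest on 30, 16, 10 and 13 reads. The Vash2 folds of 25.8 over POA and 100.3 over PFC rest on different SNPs, because a SNP is listed only where every pool of a table has a read: 22 of its SNPs are listed for E15, 15 for POA and 4 for PFC. Over the SNPs listed in all 3 tables the folds were 56.9 and 54.8. For Cd24a the same restriction gave 64.9 and 83.5.

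Of the cytoskeletal genes, Tubb2b was at 3783 and 2215 RPM in E15, at 110.5, 100.6, 133 and 112 RPM in POA and at 115, 48.5, 69.4 and 81.5 RPM in PFC. The embryonic F1i pool was the higher one, with 43310 reads aligned to the transcript against 26354 in F1r. Aligned to the genome, Tubb2b held 14478 and 14614 reads in these pools, which are nearly equal. The POA and PFC pools overlapped, and the folds of the E15 mean were 26.3 over POA and 38.1 over PFC. These folds were not taken from the genome alignment. Stmn1 was at 2557 and 4881 RPM in E15, at 588, 606, 444 and 525 RPM in POA and at 709, 966, 923 and 932 RPM in PFC, with every PFC pool above every POA pool. The Stmn1 folds of the E15 mean were 6.87 over POA and 4.21 over PFC. Crmp1 was at 1064 and 724 RPM in E15, at 155, 158, 163 and 173 RPM in POA and at 184, 168, 163 and 189 RPM in PFC. Its adult pools overlapped, and the E15 mean was 5.51-fold that of POA and 5.08-fold that of PFC.

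Gap43 was the gene whose adult POA level reached or passed that of the embryo. It was at 274.5 and 240.4 RPM in E15, at 310.1, 303, 251 and 302 RPM in POA and at 122, 107, 121 and 116 RPM in PFC. The E15 mean was 0.88 times that of POA and 2.21-fold that of PFC, with 3 of the 4 POA pools above both embryonic pools and the F1i female pool between them. The last fold was 1.68 when the pools were scaled by TMM (trimmed mean of M-values), which matches the pools on the bulk of their genes.

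POA and PFC were compared in the adult hybrids with edgeR's quasi-likelihood test on the summed allele counts, with cross and sex as terms. Of the 9 genes, 6 passed a Benjamini-Hochberg adjusted p of 0.05 over all 12788 genes tested, beside 61.4% of all genes. Gap43, Sox2 and Vash2 were higher in POA and Ccnd2, Stmn1 and Crmp1 in PFC. Over all genes the calls split into 3879 higher in POA and 3973 higher in PFC. Without TMM scaling the median of all genes moved to 0.28 and the split became 5634 and 2605. The median log2 difference was 0.18 over the 9 genes and -0.0045 over all genes. The oligodendrocyte and mature neuron genes given above moved with region in the same pools, and their part in these differences was not tested. Nor was that of other cell types whose genes moved with region: the summed levels in POA and PFC were 2203 to 2604 and 1668 to 1985 RPM for 7 astrocyte genes, 730 to 813 and 284 to 373 RPM for 5 oligodendrocyte precursor genes, all 5 of which passed as higher in POA, 272 to 311 and 350.2 to 411 RPM for 4 microglial genes, and 143 to 177 and 67.9 to 127 RPM for endothelial and mural genes, of which 8 were listed in POA and 7 in PFC. Of 6 ependymal genes, which like Cd24a mark the ventricle lining, 3 were listed in POA at a sum of 22.3 to 26.8 RPM and 1 in PFC at 0.134 to 1.01 RPM.

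Ccnd2 had the largest difference of the 9, with a log2 level of -1.99 ± 0.16 (SE) in POA against PFC (edgeR, adjusted p = 5.9e-07). Stmn1 stood at -0.99 ± 0.12 (edgeR, adjusted p = 1.7e-05) and Crmp1 at -0.40 ± 0.10 (edgeR, adjusted p = 0.0038). The Crmp1 call was lost with informative totals in place of TMM, at -0.11 (adjusted p = 0.32), and with the single SNP of most reads, at -0.22 (adjusted p = 0.29). Gap43 was 1.04 ± 0.10 higher in POA (edgeR, adjusted p = 3.4e-06) and Sox2 0.69 ± 0.16 (edgeR, adjusted p = 0.0026). Cd24a, Tubb2b and Vim did not pass, at -0.16 ± 0.14, 0.27 ± 0.18 and 0.18 ± 0.11. Tubb2b passed without the PFC F1i male pool, at 0.55 (adjusted p = 0.0060), and with informative totals in place of TMM, at 0.56 (adjusted p = 0.019), where Vim passed as well, at 0.46 (adjusted p = 0.0022). With the single SNP of most reads Tubb2b also passed, at 0.82 (edgeR, adjusted p = 0.00055).

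The difference of Vash2 turned with the SNPs used. Over all SNPs listed it was 1.80 ± 0.29 higher in POA (edgeR, adjusted p = 0.00019), and over the SNPs listed in both adult tables it was -0.19 ± 0.31 (edgeR, adjusted p = 0.62). With the shared SNPs, Ccnd2 stood at -1.93, Stmn1 at -1.27, Crmp1 at -0.34, Gap43 at 1.10 and Sox2 at 0.74, and these 5 passed. In the shared SNPs 3 of the 9 genes (Vim, Sox2 and Gap43) had every POA pool above every PFC pool and 2 (Ccnd2 and Stmn1) the reverse, beside 49.6% of 12966 genes that did not overlap in either direction.

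**Figure D2:**
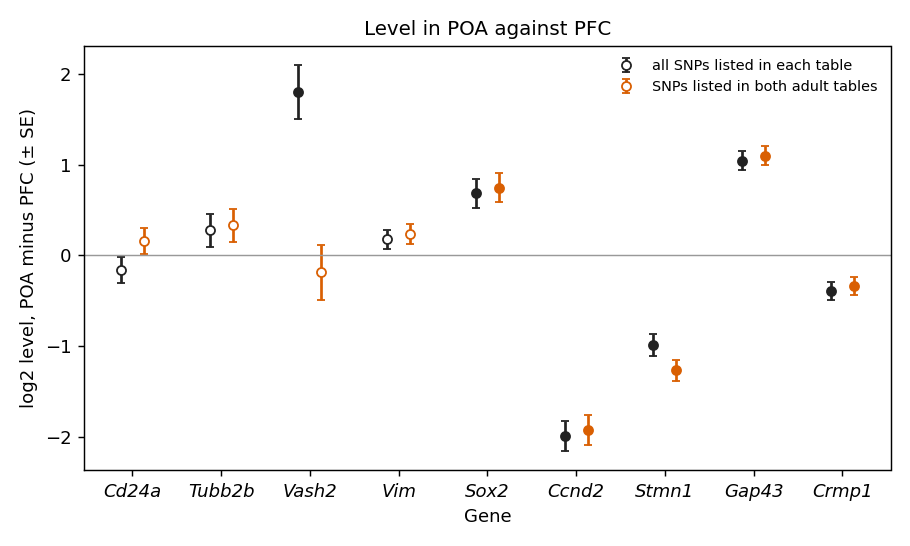
Log2 level in POA minus PFC for each gene, with its standard error (edgeR, 4 pools per region), from all SNPs listed in each table (black) and from the SNPs listed in both adult tables (orange). Filled points passed an adjusted p of 0.05; Vash2 moves from 1.80 to -0.19 between the 2 sets of SNPs and the other called genes stay on their side of 0.

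Other genes of the same cell states were followed in lists, whose counts stand beside the 61.4% of all genes that passed. Of 21 progenitor genes 16 could be tested between the adult regions: 9 were higher in POA, 2 were higher in PFC and 5 did not pass. Emx2, a homeobox gene of the dorsal telencephalon, was at 1.55 ± 0.957 RPM (SD, n = 4) in POA and 12.02 ± 3.92 RPM in PFC, a log2 difference of -3.32 ± 0.32 (SE). Sox1 and Sox3, the close relatives of Sox2, were 2.46 ± 0.22 and 1.65 ± 0.36 higher in POA, as Sox2 was. The Sox3 difference rests on few reads, at 2.60 ± 0.447 RPM (SD, n = 4) in POA and 0.658 ± 0.468 RPM in PFC. Of 16 cell cycle genes 7 could be tested, of which 5 were higher in PFC and 2 did not pass. Those higher in PFC included Pcna, the sliding clamp of DNA replication (-1.22 ± 0.13), the helicase subunit Mcm5 (-1.27 ± 0.20) and the cyclin D partner Cdk4 (-1.05 ± 0.15). Of 26 immature neuron genes 18 could be tested, of which 8 were higher in POA and 5 in PFC. The netrin receptor Dcc was 2.13 ± 0.14 higher in POA, while the transcription factor Nfib (-1.69 ± 0.14) and the Slit receptor Robo2 (-1.45 ± 0.15) were higher in PFC. The median log2 difference was 0.75 in the progenitor, -0.95 in the cell cycle and 0.40 in the immature neuron list, beside -0.0045 over all genes.

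For each gene, the single other gene with the most similar profile was found among 8705 genes, as the smallest root mean square distance of centred log2(RPM + 1) over the 10 pools. The nearest were Dcx, a microtubule protein of migrating neurons, for Cd24a (0.38), Sox11, a transcription factor of new neurons, for Tubb2b (0.25), Mcm7 for Vim (0.16) and Nfib for Ccnd2 (0.23). Klhl23 was nearest to Stmn1 (0.19), Lmnb2 to Gap43 (0.12), Lig3 to Crmp1 (0.12) and 2310057J16Rik to Sox2 (0.17). The entry nearest to Vash2 carries no gene symbol. The median distance to all genes ran from 0.68 for Gap43 to 2.54 for Cd24a. Dcx shared the large step of Cd24a, with means of 1235 RPM in E15, 16.6 RPM in POA and 9.81 RPM in PFC. The pools are the same for all genes, and no value is attached to the likeness beyond this distance.

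The 2 alleles of each gene were compared within the same adult pools. The share of reads from the CAST allele was 47.3% to 49.4% in the median autosomal gene of each pool. Of the 9 genes, 5 passed in edgeR's test of CAST against B6 over the 8 adult pools, beside 42.6% of 11285 genes. Stmn1, Cd24a and Ccnd2 were read more from B6, Vim and Gap43 more from CAST. Sox2, Tubb2b, Vash2 and Crmp1 did not pass, at log2 values of -0.13 ± 0.09, 0.10 ± 0.05, 0.12 ± 0.22 and 0.05 ± 0.04 (SE). Over isolated SNPs, those with no other listed SNP within a read length, Sox2 passed at -0.49 (edgeR, adjusted p = 0.017).

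Cd24a gave a CAST share of 36.6%, 40.0%, 38.0% and 39.8% in POA and of 37.1%, 44.2%, 50% and 31.2% in PFC, from 71 to 206 reads a pool. At most 50% came from CAST in every adult pool, and the log2 CAST to B6 value was -0.59 ± 0.11 (edgeR, adjusted p = 0.00012). In E15 the shares were 43.1% (95% Clopper-Pearson interval 42.4 to 43.8) and 44.3% (43.7 to 44.9), also under 50%. These intervals cover counting error only. Vim gave 52.1%, 51.0%, 59.6% and 57.6% CAST in POA and 60.6%, 60.4%, 54.9% and 64.8% in PFC. All 8 adult pools were above 50%, at a log2 value of 0.46 ± 0.07 (edgeR, adjusted p = 1.6e-05), though the single SNP of most reads gave 0.32 and did not pass (adjusted p = 0.073).

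**Figure D3:**
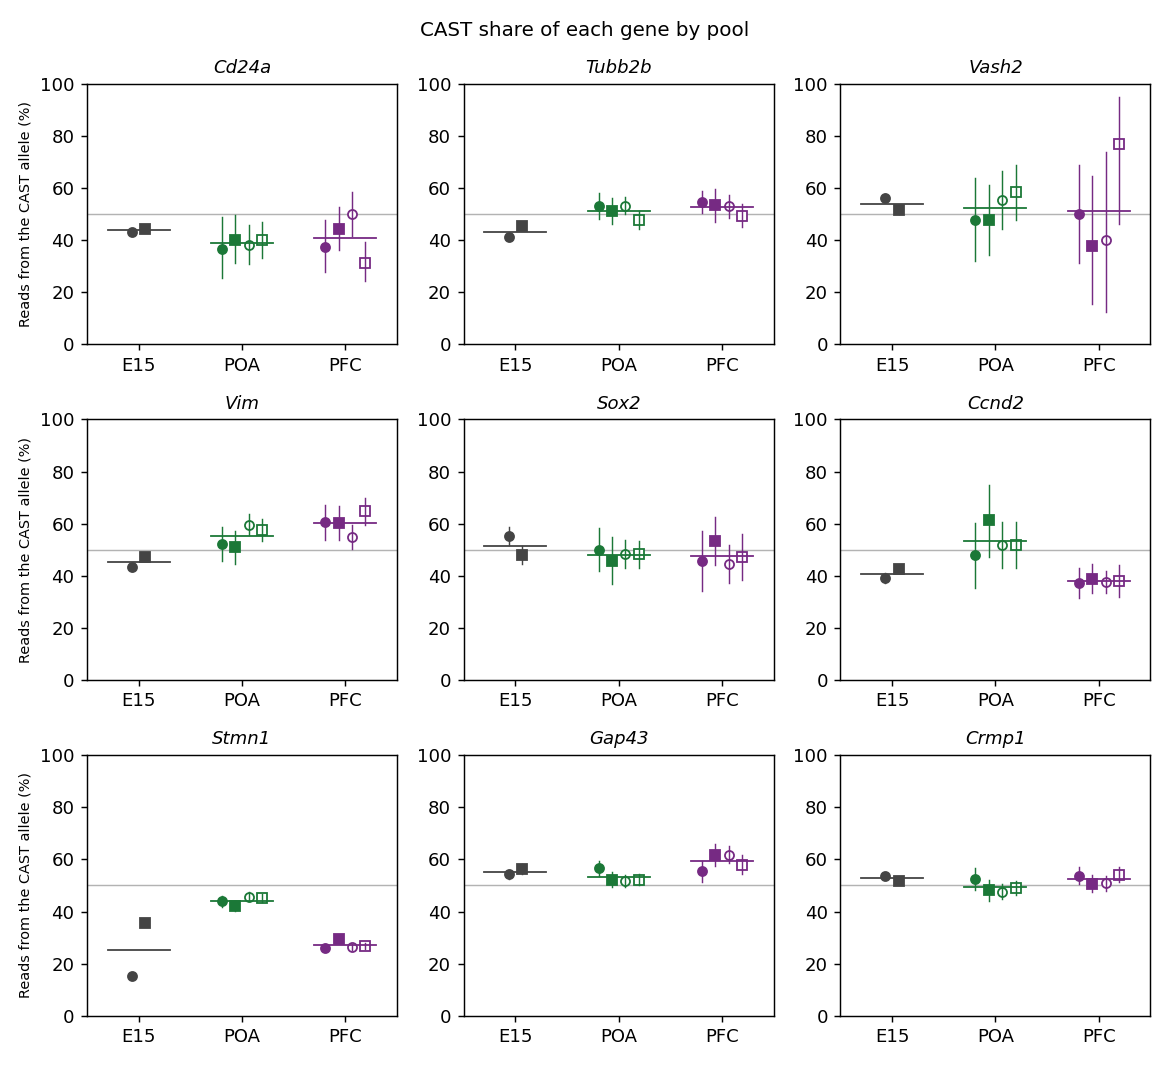
Percent of informative reads from the CAST allele in each pool, with Clopper-Pearson 95% intervals (counting error only); circles are F1i, squares F1r, open symbols female adult pools, lines group means, and the grey line marks 50%. Stmn1 lies lowest in E15 F1i at 15.0%, and its PFC pools at 26.2% to 29.4% lie under its POA pools at 42.0% to 45.7%.

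Over all SNPs and both adult regions Stmn1 had the lowest log2 CAST to B6 value of the 9 genes, at -0.88 ± 0.03, while in POA alone Cd24a was lower (-0.66 against -0.33). The CAST share of Stmn1 was 43.9%, 42.0%, 45.7% and 45.3% in POA and 26.2%, 29.4%, 26.4% and 26.6% in PFC. The regions did not overlap, and the log2 difference between them was 1.09 ± 0.07 (edgeR, adjusted p = 1.7e-10). In E15 the share was 15.0% (14.6 to 15.5) in F1i and 35.4% (35.04 to 35.8) in F1r. The SNPs did not share this lean equally. At bases 803, 823, 841 and 843, each under a read length of 36 bases from another of them, the E15 shares were 11.2%, 7.33%, 10.8% and 12.6% in F1i and 30.9%, 25.5%, 32.1% and 33.6% in F1r. At base 879, with no listed SNP that near, they were 45.7% and 49.9%.

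Base 879 also had the highest CAST share of Stmn1 in the adult regions. In POA they were 46.2%, 42.4%, 41.9% and 39.9% at the 4 clustered bases and 51.4% at base 879. In PFC, where base 823 was not listed, they were 25.9%, 20.7% and 20.7% against 39.9%. With base 879 alone, the log2 CAST to B6 value over the adult pools was -0.25 instead of -0.88 and still passed (edgeR, adjusted p = 1.4e-05), and the difference between POA and PFC was 0.68 instead of 1.09 (edgeR, adjusted p = 1.1e-06). Which bases were counted thus moved the Stmn1 lean from -0.88 to -0.25, and at -0.25 it was smaller than that of Cd24a (-0.59 over all its SNPs). Inbred E15 brain showed the same contrast between bases. At base 803 there were 1364 reads with the CAST base in the CAST strain and 3654 with the B6 base in the B6 strain, and at base 879 there were 4073 and 3650.

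**Figure D4:**
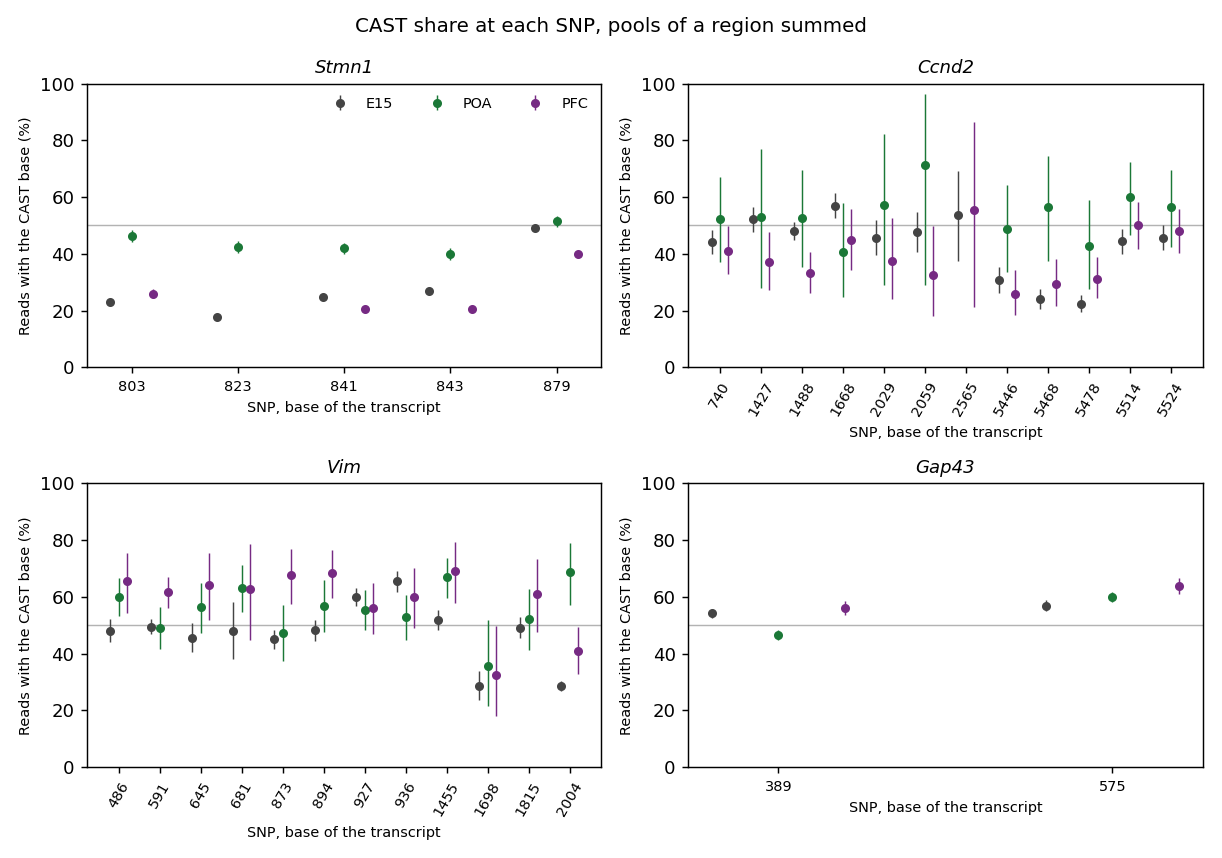
Percent of reads with the CAST base at each SNP of Stmn1, Ccnd2, Vim and Gap43, summed over the pools of E15, POA and PFC, with Clopper-Pearson 95% intervals (counting error only); SNPs are named by their base in the transcript and shown where a table has at least 20 reads. Base 879 of Stmn1 lies above the 4 clustered bases in each region. Base 2004 of Vim is at 28.5% in E15, at 68.8% in POA, from under 100 reads, and at 40.8% in PFC, so the adult regions lie on different sides of 50%.

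Ccnd2 was read mainly from B6 in PFC but not in POA. The CAST share was 37.2%, 38.8%, 37.6% and 37.8% in PFC, a range of under 2 percentage points. In POA it was 47.8%, 61.5%, 51.9% and 51.8%, from 52 to 137 reads, and no POA pool reached down to the PFC values. The regions differed by 0.86 ± 0.18 on the log2 scale (edgeR, adjusted p = 0.0020), and with isolated SNPs alone by 0.61 ± 0.28, which did not pass (edgeR, adjusted p = 0.19). Over both regions the log2 value was -0.28 ± 0.09 (edgeR, adjusted p = 0.012), and without the POA F1r female pool the call was lost, at -0.25 (adjusted p = 0.072), as it was with DESeq2 (adjusted p = 0.13). With the single SNP of most reads the value turned to 0.11 and did not pass (edgeR, adjusted p = 0.75). In E15 the shares of 39.1% and 42.5% were nearer to those of PFC than of POA. Over isolated SNPs this turned: the E15 shares were 48.6% and 51.2%, within the POA range of 44.7% to 53.7% and above the PFC range of 35.3% to 42.3%. By base, the E15 share was 22.4% at base 5478, the lowest of the 11 SNPs with at least 100 reads, and 56.9% at base 1668, the highest.

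Gap43 was the third gene whose allele balance differed between the regions. Its CAST share was 56.6%, 52.2%, 51.6% and 52.2% in POA and 55.4%, 61.8%, 61.9% and 58.0% in PFC, and the ranges overlapped in the F1i male pools. The log2 difference was -0.37 ± 0.10 (edgeR, adjusted p = 0.013), but the call was lost without the PFC F1r male (-0.31), the POA F1i female (-0.32) or the PFC F1i female pool (-0.31), with DESeq2 (-0.37) and with X-linked genes included (-0.36). Its 2 SNPs gave different shares in POA, with 46.6% (45.0 to 48.3) at base 389 and 59.98% (58.2 to 61.7) at base 575. In PFC the shares were 56.0% and 63.9%. The log2 CAST to B6 value over the adults was 0.36 ± 0.05 (edgeR, adjusted p = 1.4e-06), and with base 389, the SNP with most reads, it was 0.08 and did not pass (edgeR, adjusted p = 0.29). In all, 3 of 9 genes passed for the difference between regions, beside 10.8% of 11285 genes. Tested in each region alone, 4 of 9 passed in POA (Cd24a, Vim, Stmn1, Gap43), beside 28.6% of all genes, and 5 of the 8 with enough reads in PFC (the same 4 and Ccnd2), beside 35.9%. Several of these calls rested on the SNPs, pools or genes used. In POA the single SNP of most reads turned Gap43 from 0.17 to -0.19, which passed towards B6 (edgeR, adjusted p = 0.034), and Stmn1 from -0.33 to 0.094, which did not pass (adjusted p = 0.42). The POA call of Gap43 was also lost with X-linked genes included (0.18, adjusted p = 0.11), without the F1i male pool (0.11, adjusted p = 0.19) and without the F1r female pool (0.17, adjusted p = 0.084). The POA call of Vim, at 0.35, was lost with X-linked genes included (0.30, adjusted p = 0.14), with the single SNP (0.25, adjusted p = 0.48), without the F1i female pool (0.21, adjusted p = 0.30) and without the F1r female pool (0.23, adjusted p = 0.21). In PFC the call of Cd24a, at -0.53, was lost without the F1i male pool (-0.37, adjusted p = 0.18), without the F1r female pool (-0.33, adjusted p = 0.19) and with X-linked genes included (-0.55, adjusted p = 0.12).

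Crmp1 showed no lean that passed in the adults, with CAST shares of 47.7% to 52.6% in POA and 50.8% to 54.1% in PFC. In E15 its shares were 53.8% (52.9 to 54.6) in F1i and 51.9% (50.8 to 53.0) in F1r, both somewhat above 50%. Its bases differed among themselves. At base 2525 the CAST share was 68.0% in E15, 49.2% in POA and 62.0% in PFC, while at base 2684 it was 46.1%, 50.5% and 49.4%. Sox2 stayed between 44.4% and 53.4% in the adult pools, and its embryonic pools gave 55.3% (51.8 to 58.7) and 47.9% (44.5 to 51.4). One 3' UTR SNP of Sox2, base 2169, listed in E15 alone, gave 98.3% CAST in F1i and 66.3% in F1r. The Vash2 shares in PFC, from 10 to 30 reads, ran from 37.5% to 76.9%. Its reads there fell under the minimum for the test in PFC alone, so its balance in that region was not tested.

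The embryo and the adults were set against each other for the allele balance, which the choice of genes did not use. In edgeR's test with a term for stage, 2 of the 9 genes passed, beside 1.6% of 11901 genes. Each embryonic cross had 1 pool, so the spread in this test came mainly from the adult pools, and that between embryonic pools was hardly measured. Vim turned from 43.2% and 47.2% CAST in E15 to 51.0% or more in every adult pool, a log2 difference of -0.73 ± 0.14 (edgeR, adjusted p = 0.020). Tubb2b was at 40.9% (40.5 to 41.4) and 45.4% (44.8 to 46.1) in E15, at 53.0%, 51.0%, 53.2% and 47.6% in POA and at 54.6%, 53.2%, 52.9% and 49.3% in PFC. Both embryonic pools lay under all adult pools, at a log2 difference of -0.50 ± 0.11 (edgeR, adjusted p = 0.027). With the single SNP of most reads both edgeR calls were lost, at -1.43 ± 0.38 for Vim (adjusted p = 0.13) and -0.45 ± 0.17 for Tubb2b (adjusted p = 0.28). The difference of Tubb2b was then similar in size. That of Vim was larger, but its single SNP was base 2004, the base on which the difference over all SNPs leaned.

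The stage difference of Vim leaned on base 2004 of its 3' UTR, at 20.6% CAST in E15 F1i and 36.3% in F1r. Without that base the difference of mean log2 shares was -0.46 instead of -0.73. In the reads aligned to the genome Vim was at 48.8% and 52.1% CAST in E15, at 47.9% to 59.9% in POA and at 56.9% to 66.8% in PFC, so that the embryonic pools overlapped POA and lay under PFC. For Tubb2b the genome alignment gave 46.3% and 45.5% in E15 and 47.7% to 56.1% in POA. At base 139 the genome alignment held 28.0% as many E15 reads as the transcript alignment and gave 47.4% CAST, against 40.1% in F1i and 46.3% in F1r by transcript. At base 754 the E15 share was 44.7% by transcript and 44.2% by genome. Whether reads of other beta-tubulin genes entered the counts at base 139 was not tested. The stage difference did not pass for Stmn1 (-0.79 ± 0.37, adjusted p = 0.32), where the 2 embryonic pools differed widely from each other.

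Parent of origin was tested by the exchange of mothers between the crosses. Of the 9 genes 0 passed, beside 0.824% of 11285 genes (edgeR), 0 had an unadjusted p under 0.05 and DESeq2 called 0. The mean maternal share over the 8 adult pools ran from 46.6% ± 11.96 for Vash2 to 51.6% ± 2.58 (SD, n = 8) for Tubb2b. Tubb2b had the largest shift, 0.21 ± 0.10 on the log2 scale, with an unadjusted p of 0.054 (edgeR, adjusted p = 0.78). In the embryo the maternal share of Stmn1 was 15.0% in F1i and 64.6% in F1r, with B6 the larger allele in both crosses.

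Neither the direction of the cross nor sex changed the adult level of any of the 9 genes past the threshold. For cross, 0 of 9 passed in edgeR and in DESeq2, beside 0.00782% of 12788 genes, and 1 had an unadjusted p under 0.05: Cd24a, at a log2 level of -0.40 ± 0.14 in F1i against F1r (edgeR, adjusted p = 0.96). For sex, 0 of 9 passed in edgeR and in DESeq2, beside 0.0391% of genes, and 1 had an unadjusted p under 0.05: Vim, 0.36 ± 0.11 higher in females (edgeR, adjusted p = 0.92).

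In the inbred E15 brains the CAST to B6 ratio of each gene's level was set beside that of its F1 alleles, with 1 summed library per strain and no test. The sign was shared by the strains and both F1 pools for 8 of 9 genes, Sox2 being the exception. No share over all genes was taken beside this count, and nothing is read from it. Gap43 had log2 values of 0.65 between the strains and of 0.25 and 0.37 between the alleles in F1i and F1r. Tubb2b had -0.50 between the strains and -0.53 and -0.26 between the alleles, and Vim -0.53, -0.40 and -0.16. Cd24a stood at -0.0077 between the strains but at -0.40 and -0.33 between the alleles. Stmn1 stood at -0.56 between the strains and at -2.50 and -0.87 between the alleles, the widest gap of the 9.

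**Figure D5:**
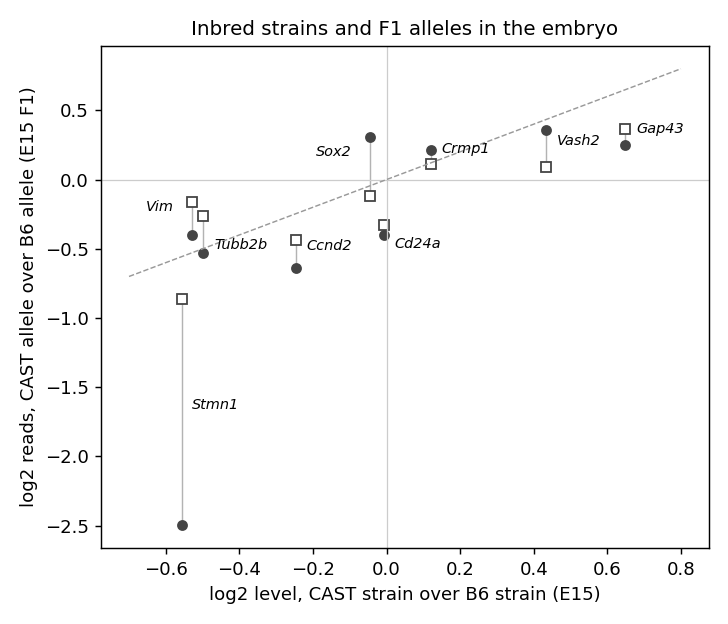
Log2 CAST to B6 ratio of each gene's level in inbred E15 brain (x axis, 1 summed library per strain, scaled to all informative reads) against that of the alleles in the E15 hybrids (y axis, filled circles F1i, open squares F1r); the dashed line marks equal values. Stmn1 lies farthest under the line at -2.50 in F1i, and Sox2 has its 2 F1 pools on different sides of 0.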

How the data were processed

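The authors' deposited tables hold counts: for each SNP, the reads in each pool that carry the CAST or the B6 base, with technical libraries summed, per the labels' protocols. Novoalign and the mm9 build are named in the submitters' processing notes. Reads were 36 cycles long, and samples had an RNA integrity score above 9. The 4 adult inbred libraries were left out, since their listed values hardly differ between the POA and PFC tables.

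Counts were summed over the SNPs of 1 transcript per gene, that with most reads. Mitochondrial genes were dropped, and the row with more reads was kept where a position was repeated. SNPs under 36 bases apart can count a read more than once, and the counts hold no strand. POA and PFC, cross and sex were compared with edgeR 4.0.16 (quasi-likelihood, TMM, filterByExpr) over the 8 adult pools. Allele tests were fitted with edgeR on the CAST and B6 counts of each pool, over autosomal genes with on average 20 or more informative reads a pool. P-values were adjusted by the Benjamini-Hochberg method over all genes tested, at 0.05. Tests were two-sided. DESeq2 1.42.0 was an alternative. The p-values measure the spread between pools of animals, which for embryo against adult is mainly that of the adult pools.

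The fits were tested on simulated data with 200 changed genes. For POA against PFC, 100% of 3-fold changes were recovered over 11620 genes, and 95.5% of the simulated strain biases over 11219 genes. Smaller changes between the regions, such as those of Sox2 (log2 0.69) and Crmp1 (-0.40), were not simulated, and their recovery is not known. Only 200 genes were changed, whereas 61.4% of genes passed between POA and PFC in the measured pools. The recovered percentages are therefore not carried over to the calls given above.

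Gene positions came from GENCODE vM1 on NCBIM37, the build of mm9, and the sequences from that genome. All 9 symbols matched, and the SNPs of 8 could be placed. Windows are those of the deepest placed SNPs listed in all tables and also found in the genome alignment. The genes shown with 2 of them were chosen after their values were seen. The 9 genes and the lists were chosen with earlier results of these data known. In the lists, the 3 genes with the largest difference between POA and PFC among those past the threshold were named.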

Additional observations from a re-analysis of the deposited data

Results flagged for a closer look

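Among 36 sets of 4 adult pools, 6 held a pool far from the other 3, where chance gives about 1 in 20. By level these were Vash2 in the POA F1r male pool (14.5 RPM), Ccnd2 in the POA F1r male pool (12.8 RPM), Stmn1 in the PFC F1i male pool (709 RPM) and Gap43 in the POA F1i female pool (251 RPM). By CAST share these were Stmn1 in the PFC F1r male pool (29.4%) and Gap43 in the POA F1i male pool (56.6%).

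The allele balance differed between POA and PFC for Stmn1 (log2 1.09), Ccnd2 (0.86) and Gap43 (-0.37). It differed between embryo and adults for Vim (-0.73) and Tubb2b (-0.50). All 5 differences passed edgeR's test of the difference itself.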

How the results depend on the processing

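By replicate number, no paired analysis was possible because the technical libraries that carry these numbers were summed in the tables. POA and PFC pools can be matched by cross and sex instead. With a term for each of these 4 matched pairs in place of additive terms, 7986 genes differed between POA and PFC, against 7852, and 6 of the 9 genes as before.

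Leaving out each adult pool in turn gave 6790 to 7889 calls for POA against PFC, 0 to 1 for cross, 0 to 6 for sex, 4238 to 4520 for strain bias, 777 to 1032 for its difference between the regions, 63 to 136 for parent of origin, 1618 to 2696 for strain bias in POA, 2777 to 3311 in PFC and 130 to 207 between embryo and adults. The count for strain bias was 2687 with the single SNP of most reads and 2813 with DESeq2, against 4802. For its difference between the regions it was 688 and 343, and 578 with X-linked genes included, against 1217. For parent of origin it was 47 with X-linked genes and 55 with DESeq2, against 93. Strain bias in POA gave 1577 with X-linked genes and 1566 with the single SNP, against 3292, and in PFC 2521 with X-linked genes, against 3964. Embryo against adult gave 15 with the single SNP, against 191. For cross, no filter gave 0 and the single SNP 2, against 1. The causes were not tested.

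Signs turned as follows. Between POA and PFC, Cd24a was 0.12 by informative totals and 0.16 by shared SNPs, Vash2 -0.19 by shared SNPs and Vim -0.48 by the single SNP. For strain bias, the single SNP gave Ccnd2 0.11 and Crmp1 -0.0069, isolated SNPs gave Vash2 -0.24, and leaving out each pool gave Vash2 -0.072 to 0.27. For its difference between regions, isolated SNPs gave Sox2 -0.044, the single SNP gave Crmp1 0.082, and leaving out each pool gave Cd24a -0.34 to 0.10, Vash2 -0.19 to 0.51 and Sox2 -0.044 to 0.15. Between embryo and adults, shared SNPs gave Sox2 -0.056, the single SNP gave Ccnd2 0.61, Gap43 0.19 and Crmp1 -0.21, isolated SNPs gave Ccnd2 0.49 and Stmn1 0.16, and leaving out each pool gave Gap43 -0.085 to 0.017. Within POA, the single SNP gave Gap43 -0.19, Stmn1 0.094, Tubb2b -0.067 and Crmp1 0.026, and leaving out each pool gave Crmp1 -0.10 to 0.038. Within PFC, the single SNP gave Crmp1 -0.050. Of the genes that turned, Vash2 between POA and PFC, Ccnd2 for strain bias, and Gap43 and Stmn1 within POA had passed the threshold before. The SNPs listed in both adult tables (for allele tests) and the isolated SNPs were chosen after seeing the data.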

Other observations

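Of 16 cell cycle genes, 15 were listed in E15 and 8 in each adult region, among them Pcna, Cdk4, Ccna2 and Mcm2. Of all 17910 genes listed in E15, 77.9% were listed in POA and 76.7% in PFC. Listing needs a read in both of the deeper E15 pools but in each of the 4 pools of an adult table, so it moves with depth and the number of pools. Mki67, the proliferation antigen, was at 193 and 169 RPM in the E15 F1i and F1r pools, and Top2a, the topoisomerase of dividing cells, at 152 and 246 RPM. Neither was listed in POA or PFC. Eomes, a transcription factor of cortical intermediate progenitors, was at 60.3 and 35.3 RPM in E15 and at 1.11 to 3.68 RPM in POA, and was not listed in PFC. Pax6, a transcription factor of radial glia, was at 12.7 RPM in both E15 pools and at 2.13 to 2.81 RPM in PFC, and was not listed in POA. Igfbpl1, of the immature neuron list, was at 581 and 557 RPM in E15 and not listed in either adult region. These genes were chosen after their values were seen, and others of the progenitor list went the other way. Sox1 was at 11.7 and 5.88 RPM in E15 and at 15.7 to 31.3 RPM in POA, though at 2.33 to 5.76 RPM in PFC. Slc1a3 was at 353 and 345 RPM in E15, at 640 to 669 RPM in POA and at 467 to 509 RPM in PFC.

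In the inbred strains, reads with the base of the other strain made up 1.36% of informative reads in CAST and 0.205% in B6. Over the 9 genes the share in the CAST strain ran from 0.397% for Gap43 to 4.42% for Sox2.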
